A study of Mus musculus with 12 samples.

Results

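The comparison described here is that of male with female liver in the KK strain, inbred mice that tend to obesity and insulin resistance. Its members were the 6 KK arrays of a series of 12, namely 3 from males and 3 from females, chosen by strain and sex as the sample titles give them. The strain label reads KK/HIJ, while their source label reads KK/J. The remaining 6 arrays came from 3 male and 3 female C57BL/6J mice, a common laboratory strain. They entered the same fit, where they helped to estimate the spread between mice, and showed where KK differed. All mice had eaten chow, were 8 weeks old, had been kept singly for 3 days, with food withheld for the last 4 hours, and were perfused with PBS before the large liver lobe was taken. No transgene, drug or gene deletion is named for any group. The design text counts 12 mice, so each array stands for its own mouse, and 300 ng of total RNA was labelled per array. The labels give no litter, hybridisation batch or scan date.

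The mouse liver is one of the most sexually dimorphic of the non-reproductive organs. Growth hormone reaches the male liver in separated pulses and the female liver in a more continuous pattern, and the transcription factor STAT5b reads this pattern together with the repressors BCL6 in males and CUX2 in females. Genes under this control include cytochromes P450 (monooxygenases of drugs, steroids and fatty acids), sulfotransferases, transporters and major urinary proteins. Many of them are members of large families of near-identical copies.

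Values are log2 expression levels per probe set, normalised by the RMA procedure, so a difference of 1 stands for a fold of 2. Differences are given as male minus female, with standard errors (SE) of the fit, SDs between mice and n = 3 mice per group. A gene was called when its p-value in limma, adjusted after Benjamini and Hochberg across the whole table, was under 0.05. The table held 18104 autosomal probe sets with 1 gene symbol. To keep the weight of single mice in view, a call is described as held when it was made with all 12 arrays and again in each of 6 fits that left out 1 KK array, thus in all 7 fits. Arrays carry no detection call here. The level of a transcript that is absent was therefore read from the Y-linked genes Eif2s3y, Uty and Kdm5d in the KK females, where it lay between 3.85 and 4.66 with a mean of 4.23.

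The sex labels matched the arrays. Xist, the RNA that silences an X chromosome, read 10.39 to 10.95 in the females and 4.21 to 4.39 in the males, and the male minus female difference of Eif2s3y was 3.78. The markers of the labelled tissue were at a mean of 12.95 to 13.07 in every KK array over 8 hepatocyte genes. The interquartile range of the values, a measure of each array's spread, was 2.97, 2.76 and 2.89 in KK females 1, 2 and 3 and 2.74, 2.64 and 2.87 in males 1, 2 and 3. Across probe sets, which are not independent, KK arrays of the same sex correlated at 0.992 to 0.996 and those of opposite sex at 0.981 to 0.993. KK female 3 stood apart from the other females in sex-dependent genes, as described with the values of C57BL/6J below. Some members of the gene lists were called without it but not with all arrays, and values without it are given where the text below names them. The others were Abhd5 (0.47), Acot4 (-1.31), Fmo2 (-1.03), Hspa5 (0.52), Ptpn6 (-0.35), Susd4 (1.06) and Tox (-0.62). The brackets hold male minus female differences without female 3.

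Sex differences in KK liver were called for 405 autosomal probe sets, or 2.24% of those tested. Males were higher for 130 (0.718%) and females for 275 (1.52%), so that females were higher in 67.9% of the calls. The size was similar each way, with a median of 0.62 for the calls higher in males and 0.63 for those higher in females. At least 2-fold differences were found for 19 genes higher in males and 58 higher in females. The 3 male values lay wholly above or wholly below the 3 female values for each of the 405 calls, as they did for 19.2% of all autosomal probe sets (males above in 10.5%, females above in 8.71%). Over all autosomal probe sets the median difference was 0.03, and 2897 had an unadjusted p under 0.05.

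These counts depended on single mice. Without KK female 1 they fell to 39 higher in males and 99 higher in females, without male 1 to 58 and 116, and without male 2 to 67 and 102. Without female 3 they were 138 and 312. Held calls numbered 37 higher in males (0.204% of the probe sets tested) and 81 higher in females (0.447%). The split between the sexes also moved with the scaling of the arrays. Females were higher in 57.5% of the calls after quantile normalisation, in 50% with each array's interquartile range as a covariate, and in 51.5% with arrays weighted by their quality.

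**Figure D1:**
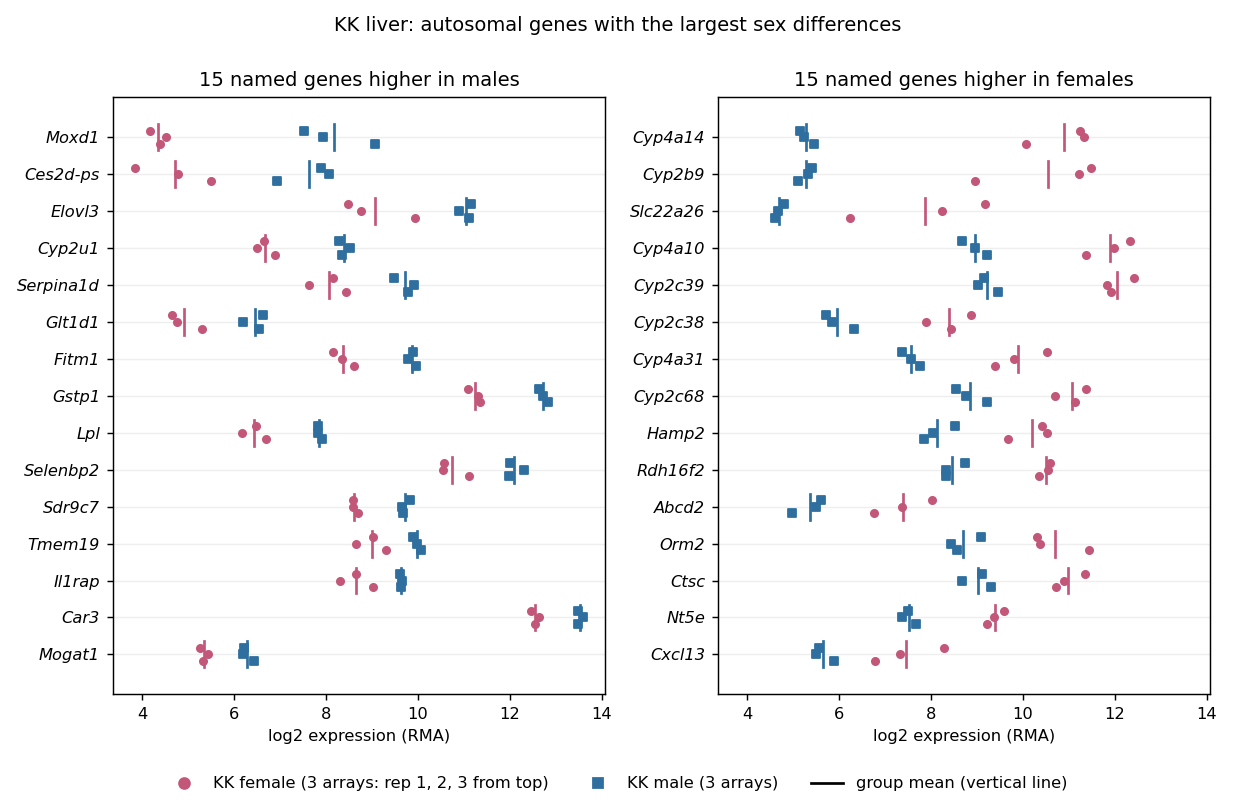
Log2 expression of the 15 named genes with the largest held difference in each direction, 1 symbol per KK array (circles, females; squares, males; replicates 1, 2 and 3 from top to bottom) and a vertical line at each group's mean. No female value overlaps a male value in either panel, as for all 405 calls. Moxd1 in females lies between 4.16 and 4.51, and female 3 is nearest to the males for Cyp4a14, Cyp2b9, Slc22a26 and Elovl3.

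A gene measured far apart in the sexes was Moxd1, which encodes a copper-dependent monooxygenase related to dopamine beta-hydroxylase. It read 4.16, 4.51 and 4.38 in the 3 females and 7.52, 7.93 and 9.06 in the 3 males. The females were thus at the level of absent transcripts, and all males were far above it, with male 3 the highest. The difference was 3.82 (SE 0.29, adjusted p = 2.74e-05), a size that is set on the female side by the level of absent transcripts and so is no exact ratio. Ces2d-ps, annotated as a carboxylesterase pseudogene, read 3.84, 4.77 and 5.49 in females and 7.89, 8.07 and 6.92 in males, a difference of 2.93 (SE 0.37), with 1 female below the level of absent transcripts. Its sequence is close to those of other carboxylesterase genes, so signal from them cannot be told apart.

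Several of the 15 genes named toward males act on lipids. Elovl3, an elongase of very long fatty acids, read 8.48, 8.76 and 9.93 in females and 11.17, 10.90 and 11.11 in males, a difference of 2.0 (SE 0.28, adjusted p = 0.003), with female 3 closest to the males. Lpl, the lipase that releases fatty acids from circulating triglyceride and is low in healthy adult liver, read 6.48, 6.17 and 6.68 in females and 7.82, 7.82 and 7.90 in males. That is 2.65-fold higher in males, with the male values almost identical. Fitm1, which partitions triglyceride into lipid droplets, read 8.14, 8.36 and 8.61 against 9.88, 9.78 and 9.96, a difference of 1.5 (SE 0.13). Mogat1, an acyltransferase that makes diacylglycerol from monoacylglycerol, read 5.26, 5.43 and 5.32 against 6.22, 6.18 and 6.43, a difference of 0.94 (SE 0.10). Cyp2u1, a P450 that hydroxylates long-chain fatty acids, was 3.26-fold higher in males. Car3, a carbonic anhydrase abundant in fat, muscle and rodent liver, read 12.46, 12.64 and 12.55 in females and 13.48, 13.59 and 13.49 in males, with a small difference of 0.97 but also a small SE of 0.06. Of 7 measured markers of white adipose tissue, Car3 was the only one called, and the list's median difference was 0.12.

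The other named genes toward males have varied roles. Gstp1, a glutathione S-transferase, read 11.08, 11.31 and 11.34 in females and 12.63, 12.73 and 12.82 in males, a 2.80-fold difference, and may share signal with its near copy Gstp2. Selenbp2, a selenium-binding protein, was 2.57-fold higher in males. Serpina1d, one of several near-identical genes for alpha-1-antitrypsin, an inhibitor of neutrophil elastase, read 8.14, 7.63 and 8.44 in females and 9.49, 9.92 and 9.78 in males, a difference of 1.66 (SE 0.17). Il1rap, the accessory chain of the interleukin-1 receptor, was 1.96-fold higher in males. Glt1d1, a putative glycosyltransferase, read 4.66, 4.76 and 5.29 in females and 6.62, 6.19 and 6.55 in males. The short-chain dehydrogenase Sdr9c7 and the membrane protein Tmem19 completed the 15, with differences of 1.10 and 0.99.

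Toward females, the largest difference was that of Cyp4a14, a P450 that hydroxylates the end carbon of fatty acids and is a classical target of the receptor PPARalpha. It read 11.25, 11.34 and 10.06 in the females and 5.15, 5.23 and 5.44 in the males. The males lay a little above the level of absent transcripts. The difference of -5.61 (SE 0.38, adjusted p = 1.1e-05) made the gene 48.9-fold higher in females. With the males so near that level, this fold is no exact ratio. Its relatives Cyp4a10, Cyp4a31 and Cyp4a32 moved the same way. Cyp4a10 read 12.32, 11.99 and 11.38 against 8.67, 8.95 and 9.23, a difference of -2.95 (SE 0.20). Cyp4a31 and Cyp4a32, which resemble Cyp4a10 closely enough to share probes, were 5.08-fold and 2.62-fold higher in females.

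P450s of drug and steroid metabolism came next. Cyp2b9 read 11.49, 11.22 and 8.95 in females and 5.41, 5.32 and 5.09 in males, a difference of -5.28 (SE 0.51, adjusted p = 0.00021). Female 3 was over 2 units below the other females and still clearly above every male. Cyp2c39 read 12.41, 11.83 and 11.92 against 9.16, 9.02 and 9.46, a 7.17-fold difference, and Cyp2c38 and Cyp2c68 were 5.39-fold and 4.70-fold higher in females. These Cyp2c genes are close copies of each other, and their separate sizes are uncertain. Rdh16f2, of the retinol dehydrogenase family, read 10.60, 10.54 and 10.34 against 8.73, 8.32 and 8.33, and with an SE of 0.11 on a difference of -2.03 it was among the most precisely measured of the large differences.

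The other named female genes serve transport, iron, immunity and nucleotide metabolism. Slc22a26, a transporter of the organic anion family, read 9.17, 8.23 and 6.23 in females and 4.80, 4.67 and 4.61 in males, a difference of -3.19 (SE 0.51). The females spanned almost 3 units, the males hardly any, and the call was lost when only the KK arrays were fitted. The males lay close to the upper end of the level of absent transcripts, so the size is no exact ratio. Hamp2, a duplicate of the iron hormone gene hepcidin, read 10.41, 10.52 and 9.67 against 8.52, 8.03 and 7.85. Abcd2, which carries very long fatty acids into peroxisomes, was 4.07-fold higher in females. Nt5e, the enzyme that forms adenosine from AMP at the cell surface, read 9.58, 9.38 and 9.22 against 7.49, 7.37 and 7.67, a difference of -1.88 (SE 0.12). Ctsc, the protease cathepsin C, was 3.89-fold higher in females. Cxcl13, a chemokine that attracts B cells, read 8.28, 7.32 and 6.78 against 5.55, 5.48 and 5.88; its difference of -1.82 (SE 0.29) was called in all 7 fits but not when only the KK arrays were fitted. Orm2, the acute phase protein orosomucoid 2, read 10.30, 10.36 and 11.44 against 9.08, 8.42 and 8.56, and here female 3 was the highest.

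Promoter stretches of 4 of these genes are shown because they hold letters searched for: TTCNNNGAA, the core that STAT5 and BCL6 can recognise, and ATTGAT, a core of Onecut factors, both counted on either strand. The sequences are those of RefSeq for build GRCm38.p6, 120 bases each, read along the gene's own strand, with the matches in capitals. Moxd1 lies on the plus strand at chr10:24223307-24223426, and the other 3 on the minus strand, Serpina1d at chr12:103773709-103773828, Slc22a26 at chr19:7802708-7802827 and Hamp2 at chr7:30924216-30924335.
Moxd1: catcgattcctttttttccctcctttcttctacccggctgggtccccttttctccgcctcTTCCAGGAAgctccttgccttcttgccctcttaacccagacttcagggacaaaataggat
Serpina1d: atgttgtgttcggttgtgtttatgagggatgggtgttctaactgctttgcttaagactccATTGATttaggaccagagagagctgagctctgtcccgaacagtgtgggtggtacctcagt
Slc22a26: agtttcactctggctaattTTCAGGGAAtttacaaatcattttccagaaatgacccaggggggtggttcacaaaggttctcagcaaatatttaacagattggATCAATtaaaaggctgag
Hamp2: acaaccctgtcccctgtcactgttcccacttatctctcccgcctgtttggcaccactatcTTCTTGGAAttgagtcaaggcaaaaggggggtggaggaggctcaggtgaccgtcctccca
The capitals in Moxd1 start 150 bases before the gene's start and those in Hamp2 94 bases before it. In Slc22a26 the STAT5 letters start 141 bases before it, and ATCAAT, the reverse complement of ATTGAT, 58 bases before it.

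These matches are a description of the letters and not of binding. Windows from 250 bases before to 50 after a start were held for 9 of the 15 genes higher in males (10 windows) and 11 of the 15 higher in females (12 windows). TTCNNNGAA was found in 2 of the 10 male windows, those of Moxd1 and Sdr9c7, and in 3 of the 12 female windows, those of Ctsc, Hamp2 and Slc22a26, beside 7.78% of 17809 windows of autosomal genes. ATTGAT was found in 2 male windows (Serpina1d and Tmem19) and 2 female windows (Cyp2c68 and Slc22a26), beside 5.77% of all windows. The numbers are too small to compare the groups.

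Genes known for a sex bias in mouse liver were examined as lists. Counts of calls in the lists, here and below, stand beside the 2.24% called over all autosomal probe sets. Of 29 measured male-biased genes, 9 were called higher in KK males and none in females, with a median difference of 0.38 beside 0.03 for all autosomal probe sets. Held calls were those of Moxd1, Elovl3, Cyp2u1, Gstp1, Selenbp2 and Ces2e, a carboxylesterase (0.62). Called with all arrays but not held were Cyp2d9, a P450 acting on steroids (1.26), Cyp7b1, which hydroxylates oxysterols and steroids (1.16), and the complement component C6 (1.10). Each of these 3 was no longer called when female 1, female 2 or any 1 male was left out. The remaining 20 were not called, among them Egfr, the receptor of epidermal growth factor, at 0.03 and the organic anion transporter Slco1a1 at 0.05.

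Female-biased genes gave more calls. Of 40 measured, 14 were called higher in KK females, and 1, the aldehyde oxidase Aox1, higher in males by 0.59, though not without females 1 or 2 or males 1 or 3. The median difference was -0.75. Held calls numbered 9: Cyp4a14, Cyp2b9, Slc22a26, Cyp4a10, Hamp2, Abcd2, Slco1a4, Cyp39a1 and Ntrk2. Slco1a4, an uptake transporter of bile acids and drugs, read 8.66, 7.76 and 8.38 in females against 7.0, 6.51 and 6.55 in males. Cyp39a1, an oxysterol hydroxylase, read 6.75, 6.66 and 6.19 against 4.98, 5.31 and 5.13. Ntrk2, the receptor of the neurotrophin BDNF, read 6.61, 6.35 and 6.18 against 5.51, 5.62 and 5.24. All 3 had groups that did not overlap, as did all 405 calls.

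A1bg, a secreted immunoglobulin-domain protein, showed how far a single female could move a result. It read 11.72, 11.58 and 7.35 in the females and 5.24, 5.58 and 4.98 in the males. Its difference of -4.95 (SE 0.85, adjusted p = 0.011) was called with all arrays but not without female 1. Sult3a1, a sulfotransferase, read 6.79, 5.65 and 3.67 in females and 3.48, 3.52 and 3.48 in males, so that female 3 lay at the male level, and it was not called (adjusted p = 0.11); without female 3 it was, at -2.73. Slc22a27, a further organic anion transporter, read 6.31, 5.31 and 4.47 against 3.99, 4.07 and 3.86 and was not called either (adjusted p = 0.058), but was without female 3, at -1.84. The males lay within the level of absent transcripts for Slc22a27 and below it for Sult3a1, so neither size is an exact ratio. Without female 3, 20 of the 40 female-biased genes were called higher in females, and without female 1, 10.

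**Figure D2:**
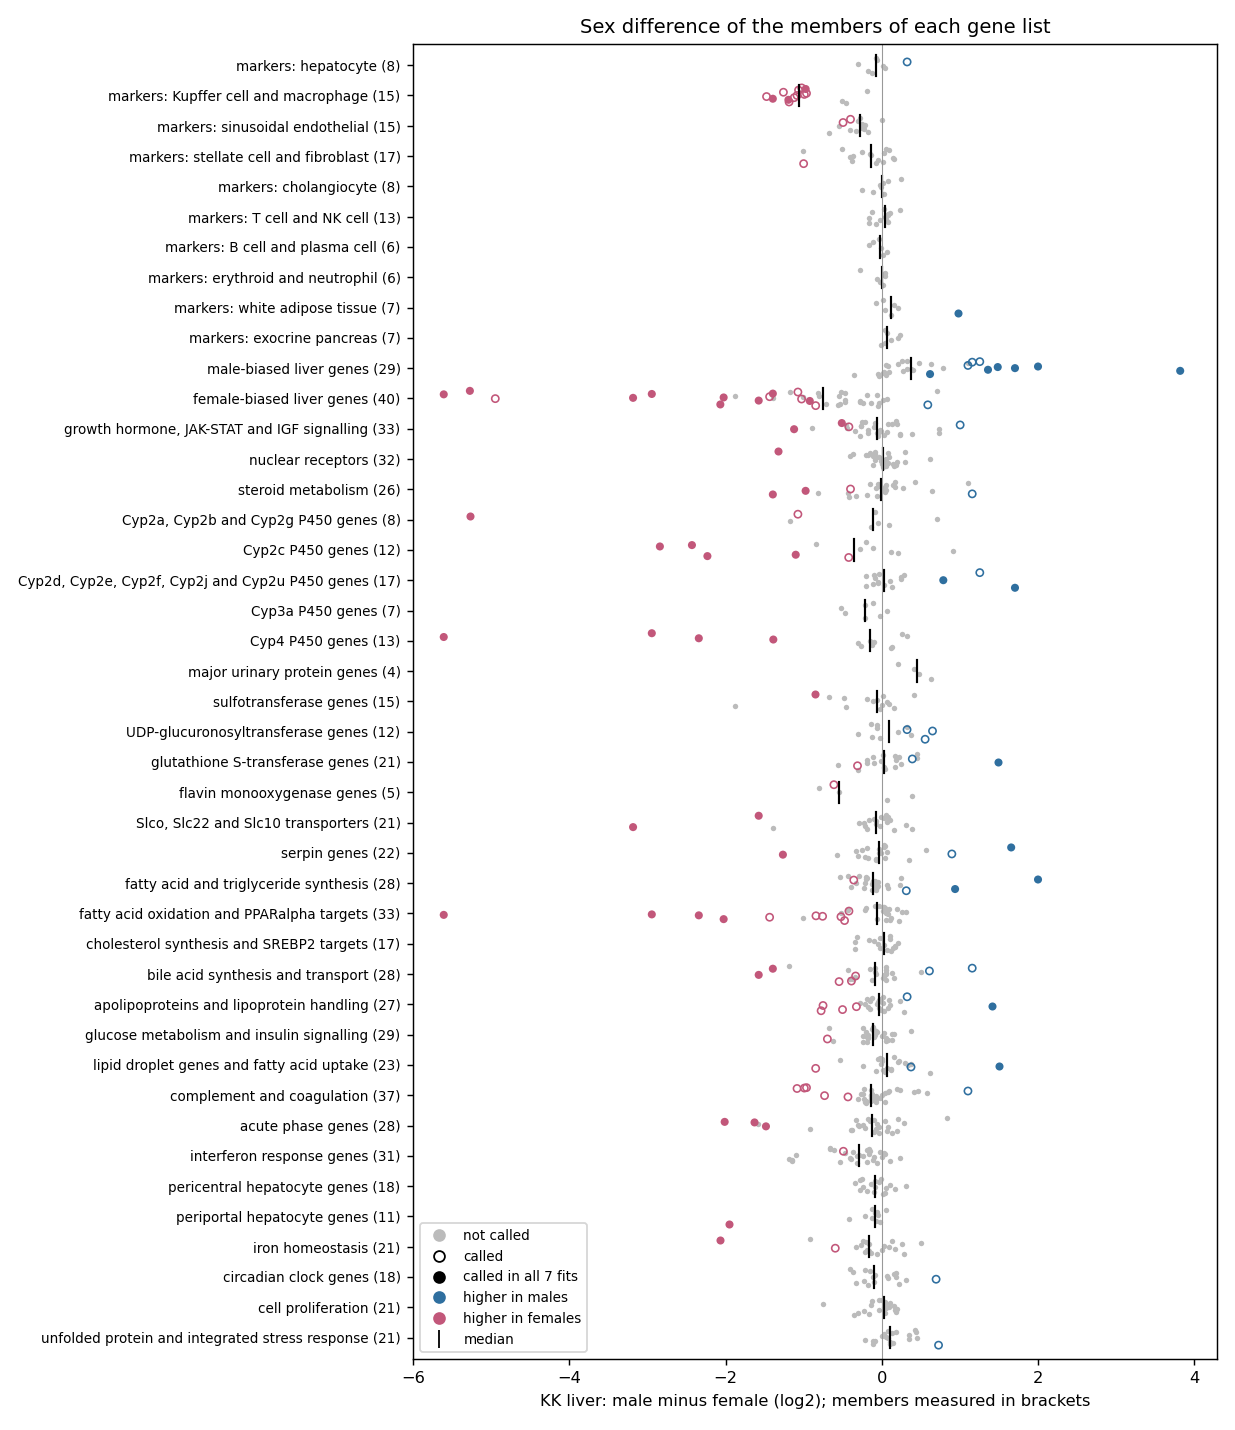
KK male minus female difference on the log2 scale for the measured members of 10 marker lists and 33 gene lists (rows, number of members in brackets); filled symbols are calls made in all 7 fits, open symbols other calls, grey symbols no call, and black ticks the medians. The Kupffer cell and macrophage row stands alone in having most of its members called in the same direction, 12 of 15 higher in females, while many lists with large single members, such as the Cyp4 genes, have medians near 0.

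Components of growth hormone signalling were called in both directions. Of 33 measured genes, 3 were higher in females and 1 in males, with a median of -0.06, and 15 had an unadjusted p under 0.05. Leaving out male 1 gave 2 calls higher in males, and leaving out female 1 or male 2 gave none. Stat5b, the transcription factor that carries the signal, read 8.34, 8.4 and 8.24 in females and 7.93, 7.73 and 7.78 in males, a held difference of -0.51 (SE 0.08). Igfbp3, the main carrier of insulin-like growth factors in blood, read 8.85, 8.43 and 8.16 against 7.67, 7.13 and 7.28, a held difference of -1.12 (SE 0.18) that was not called when only the KK arrays were fitted. Igf1 itself was lower in males by -0.42, a call lost without female 1, male 1 or male 2. In the other direction Cish, an inhibitor of cytokine receptors induced by STAT5, read 6.70, 6.90 and 6.89 in females and 7.49, 7.90 and 8.12 in males, a difference of 1.0 (SE 0.19, adjusted p = 0.018) lost without female 1 or male 2. The growth hormone receptor gene Ghr (0.18), Socs2 (0.08) and the repressors Bcl6 (-0.04) and Cux2 (0.07) were not called.

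Among 32 nuclear receptors only Esr1, the oestrogen receptor alpha, was called, a share near the 2.24% called over all autosomal probe sets. It read 8.77, 8.83 and 8.66 in females and 7.43, 7.21 and 7.62 in males, 2.51-fold higher in females, and the call was held. Ppara (-0.09), Pparg (0.61, adjusted p = 0.19) and Nr1i3, the receptor CAR (-0.20), were not called. Of 26 genes of steroid metabolism, Cyp39a1, Akr1c18 and Srd5a3 were higher in females and Cyp7b1 in males. Akr1c18, which inactivates progesterone, read 10.55, 10.31 and 10.72 against 9.69, 9.15 and 9.81, a held difference of -0.98 that was not called when only the KK arrays were fitted. The reductase gene Srd5a3 (-0.40) was no longer called without female 1, female 3, male 1 or male 2.

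The P450 families differed in how their members were called. Of 8 Cyp2a, Cyp2b and Cyp2g genes, Cyp2b9 and Cyp2a22 were higher in females, the call of Cyp2a22 (-1.07) being lost without any 1 of the males. Of 12 Cyp2c genes, 5 were higher in females, with Cyp2c39, Cyp2c38, Cyp2c68 and Cyp2c67 (-1.10) held and Cyp2c70 (-0.42) called in no omission but that of female 2, and the median was -0.35. Of 17 genes of the Cyp2d, Cyp2e, Cyp2f, Cyp2j and Cyp2u group, Cyp2u1, Cyp2d9 and Cyp2d40 were higher in males; Cyp2d40 read 8.39, 8.34 and 8.79 in females against 9.22, 9.36 and 9.30 in males, and its call was held. Of 13 Cyp4 genes the 4 named above were higher in females, all held. None of 7 measured Cyp3a genes was called at an adjusted p under 0.05, and 1 had an unadjusted p under 0.05. The listed genes Cyp3a41a and Cyp3a41b were not among the 7. Of 4 measured major urinary protein genes, which encode pheromone carriers of mouse urine, none was called, 3 had an unadjusted p under 0.05, and their differences ran from 0.21 to 0.63. Without female 3, Mup5 was called higher in males, at 0.49.

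Conjugation and transport genes gave 1 to 3 calls in each family, beside the 2.24% called over all autosomal probe sets. Among 15 sulfotransferases only Sult1a1, the enzyme for phenols, was called, at 10.68, 10.50 and 10.42 in females and 9.85, 9.48 and 9.68 in males, and the call was held. Without female 3, Sult3a1 and Sult1c2 (-0.83) were called as well, 3 in all, and without male 3 the count was 2. Of 12 UDP-glucuronosyltransferase genes, Ugt2b35 (0.65), Ugt2b34 (0.32) and Ugdh, which makes the sugar donor (0.56), were higher in males, none of them held, and none was called without female 1 or without female 2. Of 21 glutathione S-transferases, Gstp1 and Gstm4 (0.39) were higher in males and Gstk1 (-0.31) in females, with Gstp1 alone held; Gstm4 was otherwise called without female 3 and Gstk1 in none of the omissions. Fmo1, the flavin monooxygenase, was the only 1 of 5 called, higher in females by 0.61 in size and lost without either of females 1 and 2 or males 1 and 2, while 2 genes were called without female 3 or without male 3. Of 21 Slco, Slc22 and Slc10 transporters, Slc22a26 and Slco1a4 were called, both held. Among 22 serpins, Serpina1d was held in males and Serpinb1a, an inhibitor of neutrophil proteases, in females, at 6.90, 6.79 and 6.17 against 5.24, 5.25 and 5.57. Serpina12, or vaspin, was higher in males by 0.90, a call that each of the 6 omissions ended.

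Lipid metabolism was examined in several lists. Among 28 genes that build fatty acids and triglyceride, Elovl3, Mogat1 and the citrate carrier Slc25a1 (0.31) were higher in males and Elovl5 (-0.36) in females, with Elovl3 and Mogat1 held. The call of Slc25a1 was lost without female 1 or any 1 male, and that of Elovl5 in each of the 6 omissions. The central enzymes Fasn (-0.53, adjusted p = 0.13) and Scd1 (-0.11) were not called. Among 33 fatty acid oxidation genes and PPARalpha targets, 10 were higher in females and none in males, although the median was only -0.07. Held among them were Cyp4a14, Cyp4a10, Cyp4a31 and the peroxisomal transporter Abcd2. The others were the acyl-CoA thioesterases Acot1, Acot2 and Acot3, the pantetheinase Vnn1, the lipase inhibitor Angptl4 and the peroxisomal enzyme Ehhadh, with differences from -1.44 to -0.42. The count was 4 without female 1, female 2 or male 2, 5 without male 1 and 6 without male 3. Ppara itself and Fgf21 (0.08), a secreted target of it, were not called. The enzymes that perform mitochondrial beta-oxidation, such as the acyl-CoA dehydrogenases, gave no call.

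Of 23 lipid droplet and uptake genes, Fitm1 was held in males, its relative Fitm2 (0.37) was higher in males but not without female 1, female 3 or any 1 male, and the fatty acid receptor Cd36 was higher in females, at 9.72, 9.41 and 9.24 against 8.87, 8.36 and 8.60. The Cd36 call was lost without female 1, male 2 or male 3. Of 27 genes for apolipoproteins and lipoprotein handling, Lpl (held) and Apoa1 (0.32) were higher in males and Pltp, Lipg, Abcg5 and Lcat in females by -0.78 to -0.32. No female call in that list was made without female 1 or without male 2, and 1 was made without female 2 or without male 1. Cholesterol synthesis was level between the sexes as far as limma could tell: none of 17 genes was called and 2 had an unadjusted p under 0.05.

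Bile acid genes gave 7 calls among 28. Slco1a4 and Cyp39a1 were held in females, joined without being held by the FGF receptor Fgfr4 (-0.39), its partner Klb (-0.55) and the canalicular export pump Abcb11 (-0.34). Cyp7b1 and the oxidase Acox2 (0.61) were higher in males. Neither was called without female 1, male 1 or male 2, and 3 genes were without female 3, among them Scp2 (0.65), a sterol carrier and thiolase. Calls higher in females numbered 2 without female 1, male 1 or male 2 and 3 without female 2 or male 3. Cyp7a1, the rate-limiting enzyme of bile acid synthesis, read 11.44, 11.23 and 10.28 in females and 9.29, 9.66 and 10.41 in males. The groups overlapped through female 3 and male 3, and it was not called (adjusted p = 0.12), but without female 3 it was, at -1.55. Of 29 genes of glucose metabolism and insulin signalling, only Ppargc1a was called, a share near the 2.24% called over all autosomal probe sets. Ppargc1a, a coactivator induced by fasting, was higher in females by 0.70 in size, a call lost without females 1 or 2 or males 1 or 2.

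Markers of Kupffer cells, the resident macrophages of the liver, were higher in KK females as a list. Of 15 measured, 12 were called higher in females and none in males, beside 1.52% and 0.718% of all autosomal probe sets. The median was -1.07. Cd5l, a protein secreted by tissue macrophages, read 10.27, 9.65 and 9.38 in females and 7.98, 8.01 and 8.88 in males. Clec4f, a lectin found on mouse Kupffer cells, read 9.65, 9.21 and 9.06 against 8.25, 8.15 and 8.59, and the lysozyme gene Lyz2 read 10.46, 9.97 and 9.62 against 8.64, 8.51 and 8.70. Female 1 was the highest female for all 15 markers, beside 76.4% of the 275 calls higher in females and 31.4% of all autosomal probe sets. For Cd5l, male 3 was well above the other males. The groups did not overlap for any of the 12, as was so for all 405 calls and for 19.2% of all autosomal probe sets.

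The mean over the 15 macrophage markers was 8.66, 8.11 and 7.95 in females 1, 2 and 3 and 7.14, 7.16 and 7.45 in males 1, 2 and 3. Calls of Lyz2, Clec4f and the scavenger receptor Cd163 were held; Timd4, Ptprc, Mpeg1, C1qa, C1qb, C1qc, Csf1r, Adgre1 and Cd5l were not. The count of 12 changed to 4 without female 1, 3 without male 1 and 3 without male 2, and was 13 without female 3. It was 7 with the interquartile range as a covariate and 4 when only the KK arrays were fitted, while quantile and loess normalisation each gave 13. Itgam, Fcgr1 and Marco, the markers without a call, had differences of -0.51, -0.45 and -0.19. Without female 3, Itgam was called higher in females, at -0.61. In whole liver, fewer cells of a type and less RNA per cell cannot be told apart.

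**Figure D3:**
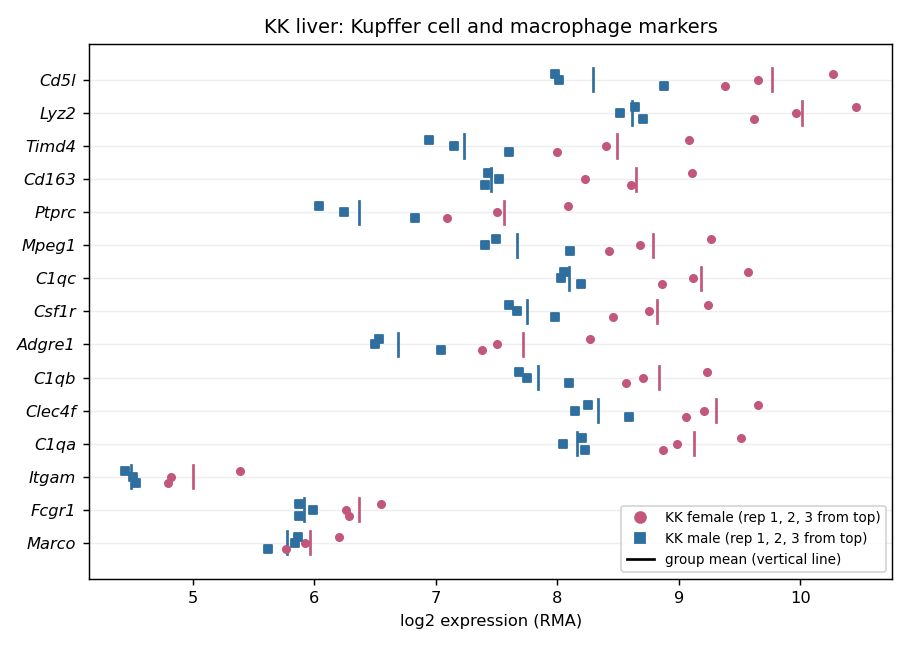
Log2 expression of the 15 measured Kupffer cell and macrophage markers in each KK array (circles, females; squares, males; replicates 1, 2 and 3 from top to bottom), with a vertical line at the mean of each group. Female 1 is the highest array for every marker, and male 3 is the highest male for most of them.

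Of the other non-hepatocyte cell types, sinusoidal endothelium also had markers called higher in females. Of its 15 markers, Fcgr2b (-0.50) and the scavenger receptor Stab2 (-0.40) were higher in females, neither held. The list's median was -0.29, 11 of the 15 had an unadjusted p under 0.05, and its mean was 8.65, 8.25 and 8.39 in the females and 8.07, 8.03 and 8.23 in the males, each female above each male. None of the 15 was called without female 1, male 1 or male 2, 4 were without female 2, and array weights gave 7 calls. Of 17 stellate cell and fibroblast markers, Ecm1 alone was called (-1.0), with 6 at an unadjusted p under 0.05 and a median of -0.14, and not after quantile or loess normalisation nor without female 1, female 2, male 2 or male 3. No marker of cholangiocytes (8 measured), T and NK cells (13), B and plasma cells (6), erythroid cells and neutrophils (6) or exocrine pancreas (7) was called by limma; the unadjusted p was under 0.05 for 1, 1, 0, 1 and 1 of them. Of 8 hepatocyte markers only Apoa1 was called, and leaving out any 1 KK array ended that call.

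Some immune genes overlapped the macrophage markers. Of 37 complement and coagulation genes, 5 were higher in females, and 3 of them, C1qa, C1qb and C1qc, are products of macrophages and stand in the marker list as well. The other 2 were the lectin Mbl2 (-0.73) and coagulation factor F7 (-0.43). C6 was higher in males. None of the 5 was called without female 1 or male 2, and 1 was without male 1. Cxcl13, named above, had its highest value in female 1, the array with the highest macrophage mean. Female 1 was also the highest female for 76.4% of the 275 calls higher in females, beside 31.4% of all autosomal probe sets. The part of macrophage content in these differences was not tested.

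Acute phase genes gave 3 calls among 28, all higher in females and all held, and 2 further calls, higher in males, when female 3 was left out. Orm3 read 8.01, 7.83 and 8.79 in females against 6.99, 6.35 and 6.39 in males, and Fgl1, a fibrinogen-like protein of hepatocytes, read 11.75, 11.67 and 12.21 against 10.56, 9.95 and 10.67. Orm2 was the third. Female 3 was the highest for each of them. The serum amyloid genes Saa1 and Saa2, which are near-identical, also peaked in female 3, with Saa2 at 8.79, 7.96 and 11.58 in females and 9.77, 10.22 and 8.99 in males, and were not called. Without female 3, Saa1 (1.89) and the haemoglobin-binding Hp (0.42) were called higher in males. Among 31 interferon response genes only the RNA sensor Ifih1 was called (-0.49), a share near the 2.24% called over all autosomal probe sets. The list median was -0.30, and each omission of a KK array other than male 3 ended the Ifih1 call. The unadjusted p was under 0.05 for 12 of the 31. Calls higher in females numbered 3 without female 3 (Cxcl9 at -1.58, Gbp3 at -1.50 and Oas2 at -0.62). They numbered 4 without male 3, none without any other 1 KK array and 6 with array weights.

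Iron genes gave 2 calls among 21, Hamp2 (held) and the exporter Slc40a1 (-0.60), both higher in females, the second lost without females 1 or 2 or males 1 or 2. Hepcidin itself, Hamp, read 11.56, 11.51 and 11.52 in females and 10.74, 10.20 and 10.89 in males without being called (adjusted p = 0.28). Of 11 periportal hepatocyte genes only Ctsc was called, and of 18 pericentral genes none was in limma, with 8 at an unadjusted p under 0.05. Of 18 circadian genes the clock output factor Dbp was higher in males (0.70), a call that remained only without female 1. Of 21 genes of the unfolded protein and stress response, Sdf2l1 was higher in males (0.73) but not without female 1, male 1 or male 3. No proliferation gene among 21 was called by limma, and 2 had an unadjusted p under 0.05.

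The same contrast in C57BL/6J, on other mice, gave 191 calls (1.06% of the autosomal probe sets), 66 higher in males (0.365%) and 125 higher in females (0.69%). Both strains called 25 genes higher in males, which is 19.2% of the KK calls and 37.9% of the C57BL/6J calls. Both called 59 higher in females, or 21.5% of the KK calls and 47.2% of the C57BL/6J calls. No gene was called in opposite directions. Genes called in both strains included Elovl3, Gstp1, Cyp2u1, Selenbp2, Fitm1, Cyp2b9, Slc22a26, Nt5e, Rdh16f2, Hamp2, Abcd2 and Esr1, whose difference was -1.33 in each strain. Since all 12 arrays shared 1 estimate of the spread and 1 normalisation, the lists are not fully independent.

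Genes chosen in C57BL/6J had smaller differences in KK. The C57BL/6J calls higher in males had a median difference of 1.01 there and 0.46 in KK, with the same sign in 59 of 66, and those higher in females -0.75 there and -0.52 in KK, with the same sign in 122 of 125. Conversely, the KK calls higher in males had a median of 0.62 in KK and 0.23 in C57BL/6J, and those higher in females -0.63 and -0.29. A list chosen by its size in one strain is favoured there, so these pairs of medians do not rank the strains.

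**Figure D4:**
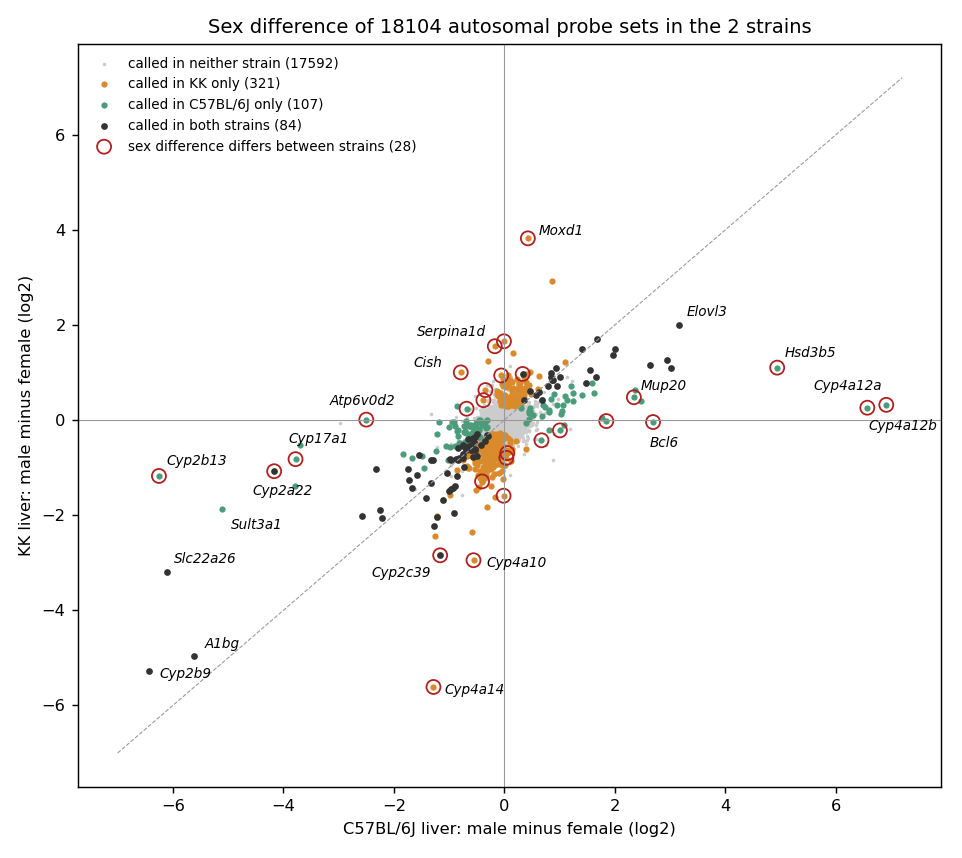
Male minus female difference (log2) of all autosomal probe sets in C57BL/6J (horizontal) and KK (vertical); colours mark calls in each strain, red circles the 28 probe sets whose sex difference differed between strains, and the dashed line equality. Cyp4a12a and Cyp4a12b lie near 0 in KK and above 6 in C57BL/6J, and Cyp4a14 and Moxd1 stand out along the KK axis.

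The difference between the strains in the sex difference was tested itself as an interaction. It was called for 28 autosomal probe sets (0.155%), 13 with a higher male minus female difference in KK (0.0718%) and 15 with a lower one (0.0829%), and 1159 had an unadjusted p under 0.05. The call was made in each of 12 fits without 1 array for 14 of the 28. Leaving out KK male 2 or C57BL/6J male 3 gave 18 calls each. No library other than these moved the count by more than 1.5 times.

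The most divergent genes were the pair Cyp4a12a and Cyp4a12b, P450s that hydroxylate fatty acids including arachidonic acid and are close copies of each other. Cyp4a12a read 12.22, 12.16 and 12.38 in KK females and 12.48, 12.49 and 12.58 in KK males. In C57BL/6J it read 5.63, 4.75 and 4.81 in females and 11.24, 11.72 and 11.94 in males. KK females thus had it at the level of males, and the sex difference, 6.57 in C57BL/6J, was 0.26 in KK (interaction -6.31, SE 0.30, adjusted p = 9.14e-07). Cyp4a12b gave an interaction of -6.59 (SE 0.26). Their neighbours in the family behaved in another way: Cyp4a14 was high in both sexes of C57BL/6J (12.66 ± 0.15 in females and 11.38 ± 0.85 in males, SD, n = 3) and low only in KK males, with an interaction of -4.33, and Cyp4a10 gave -2.39.

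Bcl6, the repressor named above, read 7.27, 7.32 and 7.56 in KK females and 7.27, 7.85 and 6.92 in KK males. In C57BL/6J it read 6.76, 6.30 and 6.24 in females and 9.03, 8.95 and 9.39 in males. The KK groups overlapped while the C57BL/6J groups were 2.69 apart, and the interaction was -2.73 (SE 0.30, adjusted p = 0.00264). F2r, the thrombin receptor, also had a male excess in C57BL/6J (1.01) and none called in KK (-0.22), with an interaction of -1.22.

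In the other direction, Cyp2b13 and Cyp2a22, female P450s of C57BL/6J, had smaller differences in KK. Cyp2b13 read 5.59, 5.35 and 3.71 in KK females and 3.70, 3.69 and 3.74 in KK males, beside 9.99 ± 0.09 in C57BL/6J females and 3.74 ± 0.09 in C57BL/6J males (SD, n = 3), and the interaction was 5.08 (SE 0.49). Males of both strains and KK female 3 lay below the level read for absent transcripts, so this size is set by that floor. Within KK the Cyp2b13 difference of -1.17 was not called (adjusted p = 0.12 in limma), but was without female 3, at -1.76. Cyp2a22 gave an interaction of 3.09. Atp6v0d2, a subunit of the vacuolar proton pump, was higher in C57BL/6J females (a difference of -2.5) and lay at 4.57 to 4.73 in all KK arrays, close to the level of absent transcripts, with an interaction of 2.51. Moxd1 lay at 4.39 ± 0.06 in C57BL/6J females and 4.82 ± 0.28 in C57BL/6J males, so its level in KK males was shared by no other group, and the interaction was 3.40 (SE 0.41). Fzd8, a Wnt receptor, was higher in KK males by 0.63 and gave an interaction of 0.97, and Tmem98 gave 0.92 without being called in KK.

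Position between the sexes of C57BL/6J was then read for each KK mouse, over the C57BL/6J calls of at least 2-fold, on a scale where 0 is the C57BL/6J female mean and 1 the male mean. For the 34 male genes the median position was 0.54, 0.52 and 0.78 in KK females 1, 2 and 3 and 0.97, 1.03 and 1.04 in males 1, 2 and 3. For the 37 female genes it was 0.25, 0.52 and 0.74 in the females and 1.04, 1.05 and 1.02 in the males. In the median, KK males therefore sat at the C57BL/6J male level and KK females lay between the sexes. Single genes spread widely, with quartiles for the female genes of -0.16 to 0.66 in KK female 1 and 0.78 to 1.29 in KK male 1. The genes were chosen by their size in C57BL/6J, whose means also set the scale, and a list so chosen is favoured there. Female 3 was the nearest to the males for both sets. It was the lowest of the 3 females for 31 of the 37 female genes (83.8%, beside 28.8% of all autosomal probe sets) and the highest for 28 of the 34 male genes (82.4%, beside 27.9%). Female 1 was the highest for 31 of the 37 (83.8%, beside 31.4% of all autosomal probe sets). What set female 3 apart was not tested.

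**Figure D5:**
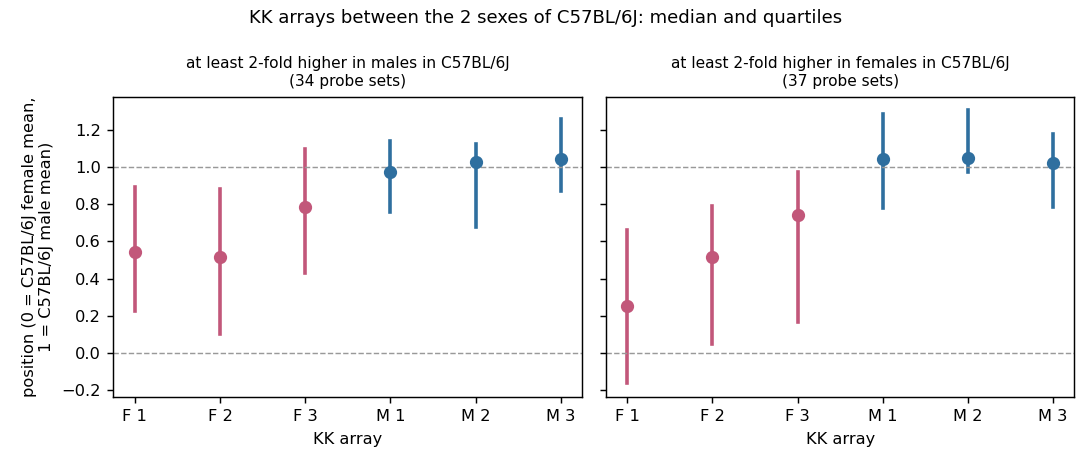
Median position (points) and quartiles (bars) of each KK array between the C57BL/6J female mean (0) and male mean (1), over 34 probe sets at least 2-fold higher in C57BL/6J males and 37 at least 2-fold higher in C57BL/6J females. KK males sit near 1 in both panels, and KK female 3 is the female closest to 1 with medians of 0.78 and 0.74.

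The genes that varied most among the KK females included several of the sex-dependent ones above. The 8 with the largest SD were Saa1 (SD 1.85), Saa2 (1.90), A1bg, Cyp2b9, Slc22a26, Sult3a1 (1.58), Nudt21 (1.29) and Cyp2b13 (1.02). The median SD over all autosomal probe sets was 0.10 in the females and 0.11 in the males. Among the males the 8 were Gadd45g (1.52), Cyp26a1 (1.45), Gbp6 (1.30), Olfr767, Olfr1415, B3galt1, Capza1 and the repressor Nr0b2. Gadd45g, a stress sensor, read 6.33, 8.85 and 6.14, and Cyp26a1, which degrades retinoic acid, read 6.53, 6.36 and 8.96. A different male thus gave the high value for each of these genes, and none of the 8 was called between the sexes. Of the male list, only Nr0b2, Gbp6 and Gadd45g were members of the lists examined.

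By chromosome, the share of autosomal probe sets called in KK ran from 1.53% on chromosome 14 to 4.02% on chromosome 19, where 22 were higher in females and 4 in males. Chromosome 19 carries the Cyp2c cluster and the Slc22 cluster with Slc22a26, and their part in its share was not tested. Neighbouring members of a cluster share sequence and are not independent counts.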

How the data were processed

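The deposited values were log2 expression levels, with 1 value for each probe set on each array, made by the authors from Affymetrix whole-transcript arrays with RMA and the affy package, per the submitters' processing notes, which name no versions. They were used as deposited, with no filter. Of 21212 probe sets, 18786 had 1 gene symbol, 6 several and 2420 none, and 18775 matched the RefSeq table of build GRCm38.p6, which gave the chromosome. A fit of all 12 arrays in limma 3.58.1 (R 4.3.3; lmFit and eBayes, two-sided) had 1 mean per strain and sex, and p-values of each of 3 comparisons were adjusted after Benjamini and Hochberg. SEs are limma's, on 11.99 degrees of freedom. The fit was tested on simulated data. Arrays give no depth, and their number limits the precision.

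The members and all lists were chosen with earlier results of these data known, so that no list is independent support. Named were the 15 largest held differences each way, all list members, the 8 largest interaction calls each way that were made in each of 12 fits without 1 array (6 each way qualified), the 8 largest C57BL/6J differences each way, the 8 most variable genes per sex, and sex-linked genes as a check. Predicted and numbered clone names were passed over.

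The labels do not say whether the same replicate number joins mice of opposite sex. Deviations from the group means correlated at -0.19, 0.41 and 0.06 between KK males and females with numbers 1, 2 and 3. In C57BL/6J they correlated at 0.09, 0.10 and 0.44. These few values, over probe sets that are not independent, cannot decide whether the numbers pair mice. Alternatives were quantile and loess normalisation, brighter or single probe sets, an intensity trend, array weights, the interquartile range as a covariate, only the KK arrays, a fold of 1.5, a replicate block, and omission of each array.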

Additional observations from a re-analysis of the deposited data

Results flagged for a closer look

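For 22 of the named or listed genes the male minus female difference was itself different between KK and C57BL/6J in limma's interaction test, adjusted over all probe sets. The values below are the KK difference minus the C57BL/6J difference on the log2 scale.

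The lower ones were those of Cyp4a12b (-6.59), Cyp4a12a (-6.31), Cyp4a14 (-4.33), Hsd3b5 (-3.84), Bcl6 (-2.73), Cyp4a10 (-2.39), Mup20 (-1.86), Cyp2c39 (-1.68), F2r (-1.22) and Etnppl (-1.10). Hsd3b5, a keto-steroid reductase of male liver, read 9.07, 8.93 and 9.64 in KK females and 10.16, 10.25 and 10.55 in KK males, while C57BL/6J females read 6.52, 4.39 and 5.42. The KK difference of 1.10 was not called (adjusted p = 0.203), and the interaction was lost without KK male 1 or 2, C57BL/6J female 3 or C57BL/6J male 2 or 3. Mup20, the urinary pheromone darcin, read 12.97, 12.69 and 13.35 in KK females and 11.19, 10.57 and 11.36 in C57BL/6J females, with the male means of KK and C57BL/6J at 13.48 and 13.39; the interaction was lost without KK male 1 or 2 or C57BL/6J male 2 or 3. Etnppl, a phospholyase, was lost without KK female 1 or 3, KK male 1 or 2 or C57BL/6J male 2. Cyp2c39 was called in both strains, and its interaction was lost without KK male 1 or 2, any C57BL/6J female or C57BL/6J male 2.

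The higher ones were those of Cyp2b13 (5.08), Moxd1 (3.40), Cyp2a22 (3.09), Cyp17a1 (2.96), Atp6v0d2 (2.51), Cish (1.79), Glt1d1 (1.73), Serpina1d (1.66), Mogat1 (1.0), Fzd8 (0.97), Tmem98 (0.92) and Car3 (0.64). Cyp17a1, which makes androgen precursors, lay at 6.33 ± 0.27 in KK females and 10.87 ± 0.59 in C57BL/6J females (SD, n = 3), and its interaction was lost in 11 of 12 fits without 1 array. Cish was higher in KK males and not called in C57BL/6J, where the difference was -0.79, and its interaction was lost without KK female 1, KK male 2 or C57BL/6J male 2 or 3. Serpina1d lay at 11.43 ± 0.07 and 11.42 ± 0.10 in the females and males of C57BL/6J; its interaction was lost without KK male 2 or C57BL/6J female 3 or male 3. Glt1d1 was lost without KK male 1 or C57BL/6J male 2 or 3, Mogat1 without KK female 1 or 3, KK male 1 or C57BL/6J male 2 or 3, and Car3 without C57BL/6J male 2.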

How the results depend on the processing

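None of the results run under an alternative reversed a call. The 130 autosomal calls higher in KK males became 855 with array weights, 229 with the interquartile range as a covariate, 214 after quantile normalisation, 210 with the replicate block, 71 at a fold of at least 1.5 and 55 with only the KK arrays. The 275 higher in females became 907 with array weights, 157 at a fold of at least 1.5 and 109 with only the KK arrays. The 28 interaction calls became 70 with array weights and 43 with the interquartile range. The causes of the rises were not tested. Leaving out each array in turn gave 39 to 138 calls higher in males, 99 to 312 higher in females and 18 to 34 interactions. Of the 405 calls, 392 (96.8%) were kept with the replicate block, 369 after quantile normalisation, 319 with the interquartile range and 154 (38.0%) with only the KK arrays, a fit with fewer samples. Array weights kept 399 but weight male 3 lowest (0.50) and male 1 highest (3.28), so their counts rest on few mice. Among the KK females they weight female 3 highest (1.75, beside 0.76 for female 1 and 0.55 for female 2). Detection and probes shared by gene copies were not examined. With 3 mice per group, a gene without a call is not shown to be equal between the sexes.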
